A study of Mus musculus with 4 samples.

Results

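Multiciliation regulators are the genes that switch a cell to the programme for many motile cilia and that build the centrioles from which those cilia grow. The set described here holds 10 genes, found by symbol in the deposited gene annotation and joined by Ensembl identifier to the count table: Gmnc, Mcidas, E2f4, E2f5, Myb, Ccno, Deup1, Cdc20b, Foxj1 and Rfx3. They are 10 of 54232 genes in the table. The members were chosen by their measured values: the set was drawn up because Deup1, Ccno and Mcidas rose in the comparison below, so the values of its members are given as a description and not as a test. The libraries come from mouse RPP631 cells, a line of small cell lung cancer (SCLC), after 48 h with 100 nM YKL, which the series title names as inhibiting the kinase CDK7, or with the vehicle DMSO alone. There were 2 libraries of total RNA per treatment, DMSO replicates 1 and 2 and YKL replicates 1 and 2. RPP631 is a single line, its genotype is not given in the labels, and nothing says that the replicates were separate cultures, so any p-value speaks only for the variation among these libraries, which may be technical.

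In an airway or ependymal cell that leaves the cell cycle, GEMC1 (gene Gmnc) and multicilin (Mcidas), both relatives of geminin, bind E2F4 or E2F5 with a DP partner and turn on genes for centriole amplification. Cyclin O (Ccno) and DEUP1 act at that step: DEUP1 builds the deuterosome, a platform specific to multiciliated cells on which many centrioles form at once, and cyclin O is needed for enough of them to form. MYB acts early in the same programme, whereas FOXJ1 and RFX3 turn on genes of the cilium itself. Ccno, Mcidas and Cdc20b lie side by side in vertebrate genomes, and the microRNAs of the miR-449 family sit in an intron of Cdc20b.

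Since Mcidas, Ccno, Deup1 and Cdc20b had the largest differences of the set, the RefSeq promoter windows of these 4 genes are shown (build GRCm38.p6, the assembly of mm10). Each runs 5′ to 3′ on the gene's strand, from 250 bases before to 50 bases after an annotated start. Capitals mark matches, on either strand, to GTTGCC, the core of the X-box bound by RFX factors, or to GCGGGAA or GGCGGGA, letters found in E2F sites. The Ccno window is chr13:112987552-112987851 (plus strand), that of Mcidas chr13:112993618-112993917 (plus strand), that of Cdc20b chr13:113035129-113035428 (plus strand) and that of Deup1 chr9:15627797-15628096 (minus strand). Deup1 has another annotated window, which is described below but not shown.
Ccno: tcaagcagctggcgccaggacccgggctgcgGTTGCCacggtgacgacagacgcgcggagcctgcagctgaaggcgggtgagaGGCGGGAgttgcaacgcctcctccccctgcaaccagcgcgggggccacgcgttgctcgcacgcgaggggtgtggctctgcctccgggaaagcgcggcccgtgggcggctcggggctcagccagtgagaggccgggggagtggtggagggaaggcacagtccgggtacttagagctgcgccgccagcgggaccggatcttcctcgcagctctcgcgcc
Mcidas: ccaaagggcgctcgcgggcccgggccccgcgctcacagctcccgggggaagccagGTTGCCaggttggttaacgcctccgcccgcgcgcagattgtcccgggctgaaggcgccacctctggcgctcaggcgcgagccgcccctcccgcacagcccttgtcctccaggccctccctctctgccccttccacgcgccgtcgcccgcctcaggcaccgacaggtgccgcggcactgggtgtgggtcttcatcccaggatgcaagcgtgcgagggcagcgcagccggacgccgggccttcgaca
Cdc20b: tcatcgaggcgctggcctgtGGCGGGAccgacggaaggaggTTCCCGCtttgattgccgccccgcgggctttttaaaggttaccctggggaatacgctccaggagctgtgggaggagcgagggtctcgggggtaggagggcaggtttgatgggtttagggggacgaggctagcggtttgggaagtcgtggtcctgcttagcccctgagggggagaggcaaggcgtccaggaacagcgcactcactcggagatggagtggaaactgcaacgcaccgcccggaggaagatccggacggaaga
Deup1: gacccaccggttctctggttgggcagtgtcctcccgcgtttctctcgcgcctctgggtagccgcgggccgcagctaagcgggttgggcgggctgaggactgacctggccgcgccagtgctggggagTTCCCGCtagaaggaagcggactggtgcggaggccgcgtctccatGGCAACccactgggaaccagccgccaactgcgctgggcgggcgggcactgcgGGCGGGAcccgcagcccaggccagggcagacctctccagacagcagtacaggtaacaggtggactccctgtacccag

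The RFX core GTTGCC was found in the windows of Ccno, Mcidas and Deup1, at positions -219, -195 and -79 relative to the start, and in that of Rfx3, but not in that of Cdc20b. Of all 32851 promoter windows, 12.5% held this motif. The letters GCGGGAA were found in the windows of Deup1 and Cdc20b, against 4.60% of all windows, and GGCGGGA in those of Ccno, Deup1, Cdc20b and Myb, against 11.3%. The MYB motif CAACNG matched in the windows of Ccno, Deup1, Gmnc and Rfx3, against 35.0% of all windows, and in Ccno and Rfx3 it overlaps the RFX core. The forkhead motif TGTTTAC was found only in the Myb window among the 9 windows of the 7 members that have one (3.65% of all windows), and TTTGAA, the core of the cell cycle element CHR, in none of the 9 (17.9% of all windows). The windows shown are rich in GC, at 72% for Ccno, 73.3% for Mcidas, 63% for Cdc20b and 69.3% for Deup1, against a median of 52.7% over all windows. The Deup1 window that is not shown (chr9:15628257-15628556, minus strand) was at 39.3% GC. It held the MYB motif but no match to the RFX core or to the E2F letters. The motifs were searched with these sequences in view, and a match describes letters, not binding.

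The libraries held between 29817387 and 34189709 counts assigned to genes, and 16749 genes passed the filter on low counts. All 10 regulators passed, Cdc20b only through its counts in YKL. Gmnc reached the minimum count in DMSO replicate 2 but not in DMSO replicate 1, so its pass also rested on YKL. Neuroendocrine markers, the defining genes of this tumour type, were all 8 expressed, with a summed level of 3814 to 4489 CPM (counts relative to the TMM-scaled library size) in DMSO and 3312 to 3453 in YKL. The 8 markers of multiciliated cells, which include Foxj1, summed to 35.3 and 29.7 CPM in DMSO and 31.7 and 32.6 CPM in YKL. Without Foxj1 the sums were 26.7 and 24.8 CPM in DMSO and 17.7 and 17.2 CPM in YKL, lower in both YKL libraries. Most of that difference came from the single gene Rsph1, at 11.6 and 16.3 CPM in DMSO and 5.48 and 5.96 CPM in YKL. Single markers differed in direction, from Rsph1 at a log2 fold change of -1.29 ± 0.33 to Cfap126 at 1.20 ± 0.50, neither past the threshold in edgeR. Sntn and Ccdc153 had 3 or fewer counts over all libraries. Among leukocyte markers Cd3e had no count, and the summed level of the list was 2.90 and 4.76 CPM in DMSO and 7.83 and 4.75 CPM in YKL. Of these markers Ptprc had 0 and 2 counts in DMSO and 25 and 23 counts in YKL. It passed the filter on low counts only through YKL, so edgeR's call of it as higher (adjusted p = 0.0392) is not read as a result. The call ended with total count scaling and with no robust prior (edgeR adjusted p = 0.0723 and 0.062). It also ended when either YKL library was left out, at log2 fold changes of 4.37 without replicate 1 and 4.55 without replicate 2. The part of such RNA in the results below was not tested. In bulk RNA, more cells of a type and more RNA per cell cannot be told apart.

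Of the 10 regulators, the centriole amplification genes Deup1 and Ccno and their upstream activator Mcidas were 4.76 to 5.29 times as high in YKL as in DMSO. Cdc20b had a fitted fold of the same size at a far lower level, Foxj1 and Gmnc had fitted folds of 2.18 and 2.17, and Myb stood slightly higher in YKL. E2f4, E2f5 and Rfx3, which are expressed in many cell types, had lower levels in YKL by small amounts. By edgeR's quasi-likelihood test with Benjamini-Hochberg adjustment over all genes, 3 of the 10 were called at an adjusted p under 0.05, all higher in YKL. Of all genes tested, 3.54% were called, 2.10% higher and 1.44% lower, and since this contrast chose the set, nothing is read from that difference. The libraries of DMSO and YKL did not overlap for 9 of the 10, with Gmnc the exception, against 52.3% of all genes tested; 6 were higher in YKL and 3 lower, against 27.0% and 25.3%. The median log2 fold change was 1.12 for the set and -0.00014 for all genes tested. Under other settings the number of regulators called was 3 with RLE scaling (4.19% of all genes), 2 with total count scaling (1.01%), 5 with no filter on low counts (5.79%), 4 in a fit that blocks on the replicate (8.28%), 3 with no robust prior (1.41%) and 4 by DESeq2 (11.0%). It was 4 without DMSO replicate 1 (7.61%), 4 without DMSO replicate 2 (14.0%), 3 without YKL replicate 1 (0.606%) and 2 without YKL replicate 2 (0.402%).

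**Figure D1:**
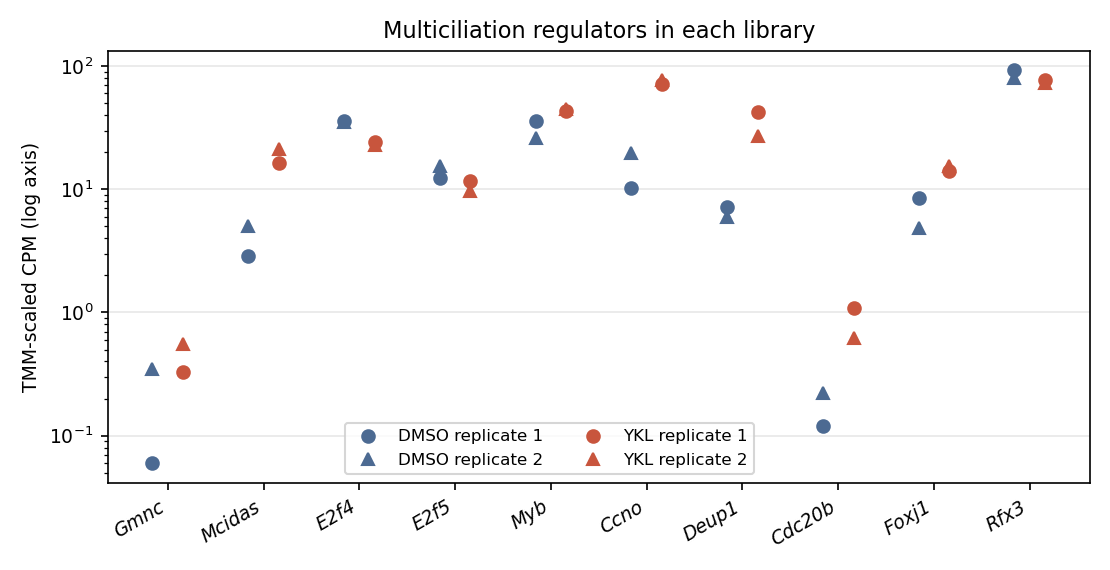
Level of each regulator in each library, in TMM-scaled CPM on a log axis, ordered by role from upstream activators to cilium genes. Blue points are DMSO and red points YKL, circles replicate 1 and triangles replicate 2. Mcidas, Ccno and Deup1 stand well apart between treatments, whereas E2f4, E2f5 and Rfx3 lie close together and Gmnc overlaps.

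Of the activators at the top of the cascade, Gmnc was near the limit of detection and Mcidas was low in DMSO. Mcidas (ENSMUSG00000074651, chromosome 13, 112993845 to 113000394, mm10) encodes multicilin, which has no DNA-binding domain of its own and works through E2F4 or E2F5. Its counts were 96 and 159 under DMSO (replicates 1 and 2, the order used throughout) and 503 and 685 under YKL, which is 2.87 and 5.04 CPM against 16.4 and 21.3 CPM. The lowest YKL library was thus above the highest DMSO library, and the means were 3.96 ± 1.54 and 18.8 ± 3.43 CPM (SD, n = 2; fitted fold 4.76, log2 fold change 2.25 ± 0.37, standard error). Its call ended with total count scaling, just past the threshold, and without YKL replicate 2, where the log2 fold change was 2.05. Gmnc (ENSMUSG00000068428, chromosome 16, 26913553 to 26991652), which acts above Mcidas, reached 2 and 11 counts under DMSO and 10 and 18 under YKL. DMSO replicate 2 and YKL replicate 1 could not be told apart, with exact Poisson 95% intervals of 5.49 to 19.7 and 4.80 to 18.4 counts that cover counting error only. The log2 fold change of Gmnc was 1.12 ± 0.83 and ran from 0.34 without DMSO replicate 1 to 2.78 without DMSO replicate 2.

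The E2F partners of these activators differed little between treatments. E2f4 (ENSMUSG00000014859, chromosome 8, 105297663 to 105305370), a mainly repressive E2F in other cells, was at 35.6 and 35.2 CPM in DMSO and at 24.3 and 22.9 CPM in YKL. Both YKL libraries were below both DMSO libraries, and the log2 fold change was -0.58 ± 0.21. E2f5 (ENSMUSG00000027552, chromosome 3, 14578641 to 14606309) was at 12.4 and 15.5 CPM in DMSO and 11.8 and 9.62 CPM in YKL (log2 fold change -0.38 ± 0.30), with YKL replicate 1 just under DMSO replicate 1. Its exons share 26 bases with 1810022K09Rik on the other strand. Per kilobase of exon, the scale on which genes can be compared, E2f4 was at 14.4 and Mcidas at 1.66 CPM per kb in DMSO, and at 9.63 and 7.93 CPM per kb in YKL. E2f4 was thus well above Mcidas in DMSO, and in YKL the libraries of E2f4 (9.90 and 9.36 CPM per kb) still lay above those of Mcidas (6.91 and 8.95). Myb (ENSMUSG00000019982, chromosome 10, 21124935 to 21160984), which is also known from proliferating blood progenitors, was at 35.7 and 26.0 CPM in DMSO and 43.3 and 44.9 CPM in YKL. Its YKL libraries were nearly equal, and the log2 fold change of 0.51 ± 0.22 ran from 0.27 without DMSO replicate 2 to 0.76 without DMSO replicate 1.

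The genes of centriole amplification had the highest folds. Ccno (ENSMUSG00000042417, chromosome 13, 112987802 to 112990777) reached 341 and 620 counts under DMSO and 2183 and 2482 under YKL, or 10.2 and 19.7 against 71.2 and 77.0 CPM. The DMSO libraries differed more between themselves than the YKL libraries did, yet all YKL values were above both. Its means were 14.9 ± 6.70 and 74.1 ± 4.10 CPM (SD, n = 2; fitted fold 4.97, log2 fold change 2.31 ± 0.31), and without DMSO replicate 1 and DMSO replicate 2 the log2 fold change was 1.92 and 2.83. Deup1 (ENSMUSG00000039977, chromosome 9, 15559864 to 15627933), the paralog of the centrosomal gene Cep63, reached 240 and 188 counts under DMSO and 1295 and 878 under YKL. That is 7.17 and 5.96 CPM against 42.3 and 27.3 CPM, so here the YKL libraries were the more unequal pair. Its means were 6.57 ± 0.855 and 34.8 ± 10.6 CPM (SD, n = 2; fitted fold 5.29, log2 fold change 2.40 ± 0.29). Cdc20b (ENSMUSG00000078926, chromosome 13, 113035111 to 113091195), a relative of the anaphase activator Cdc20 that takes part in releasing centrioles from deuterosomes, reached 4 and 7 counts under DMSO and 33 and 20 under YKL. The groups did not overlap, but at this depth its fitted fold of 4.90 had a wide error (log2 fold change 2.29 ± 0.69), and it was called only without the filter or without DMSO replicate 2. An antisense RNA, AC159207.1, shares 10.8% of its exonic bases and had at most 2 counts in a library.

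**Figure D2:**
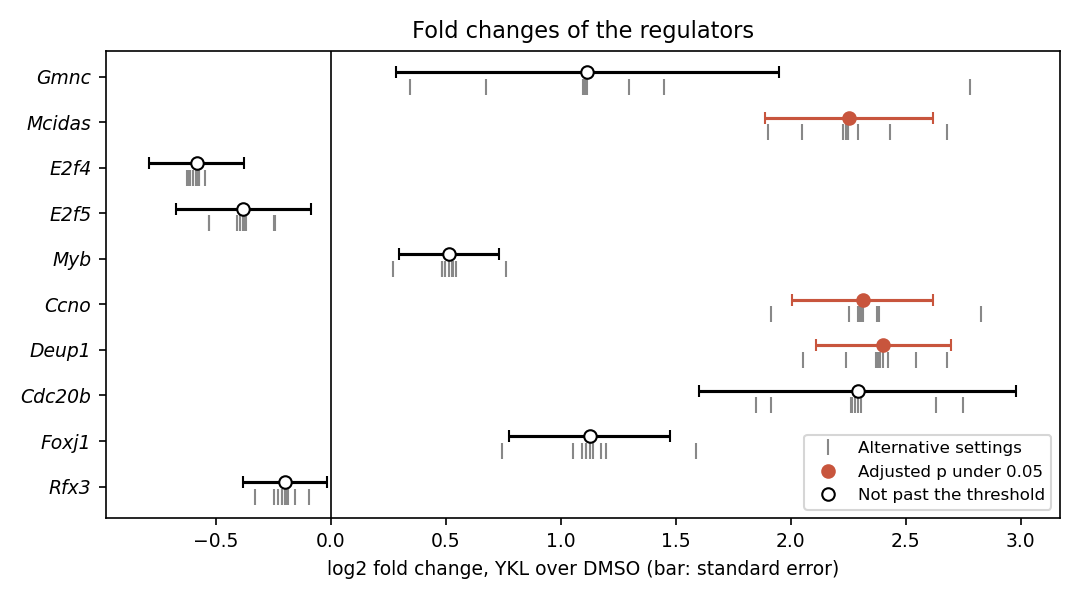
Log2 fold change of each regulator, YKL over DMSO, with its standard error (circles and bars), and below each the values under the alternative settings, which include each library left out (grey ticks). Filled circles passed an adjusted p of 0.05; Deup1, Ccno and Mcidas lie between 2.25 and 2.40, and no value of a gene crosses 0.

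The transcription factors of the cilium itself differed in their values. Foxj1 (ENSMUSG00000034227, chromosome 11, 116330704 to 116335399), the master factor of motile cilia, reached 287 and 154 counts under DMSO and 429 and 496 under YKL, or 8.58 and 4.89 against 14.0 and 15.4 CPM. Both YKL libraries were above both DMSO libraries, and the log2 fold change was 1.13 ± 0.35 (fitted fold 2.18). It was not called in the main edgeR fit (adjusted p = 0.107). With all libraries it was called by DESeq2, at a log2 fold change of 1.11, with no filter and with replicate numbers as blocks. Without DMSO replicate 1 the log2 fold change was 1.59. Without DMSO replicate 2 the log2 fold change was 0.74. Rfx3 (ENSMUSG00000040929, chromosome 19, 27761721 to 28011166), which serves both primary and motile cilia, had the highest CPM of the 10 in DMSO, at 92.4 and 80.5 CPM in DMSO and 77.9 and 72.7 CPM in YKL, where it overlapped Ccno (log2 fold change -0.20 ± 0.18). DMSO replicate 2 and YKL replicate 1 lay close together.

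The order of the levels per kilobase of exon differed between treatments. In DMSO it ran from E2f4 at 14.4 CPM per kb over Rfx3 (7.84), E2f5 (7.82), Ccno (5.84), Myb (3.45), Foxj1 (2.57), Deup1 (1.98) and Mcidas (1.66) to Cdc20b (0.0935) and Gmnc (0.0356). From Rfx3 down to Mcidas, each gene overlapped the next in its libraries there. In YKL Ccno led at 29.0 CPM per kb, followed by Deup1 (10.5), E2f4 (9.63), Mcidas (7.93) and Rfx3 (6.82), then E2f5 (6.01), Foxj1 (5.60), Myb (4.93), Cdc20b (0.464) and Gmnc (0.0771). In YKL the libraries of Deup1 overlapped those of E2f4, and from Mcidas down to Foxj1 each gene overlapped the next, whereas E2f4 did not overlap Mcidas. Among all genes tested, Ccno moved from the percentile 52.9 of levels per kilobase in DMSO to 87.5 in YKL, Deup1 from 34.2 to 67.2 and Mcidas from 31.9 to 60.4.

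Ccno and Mcidas kept a similar proportion in all libraries. The level of Ccno per kilobase was 3.30 and 3.63 times that of Mcidas in DMSO replicates 1 and 2 and 4.04 and 3.37 times in YKL replicates 1 and 2. Deup1 varied apart from them: per kilobase it was 1.79 and 0.849 times Mcidas in DMSO and 1.85 and 0.920 times in YKL, so its share was higher in the libraries numbered 1 of both treatments. With 4 libraries no correlation was computed.

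Ccno, Mcidas and Cdc20b lie on the same strand of chromosome 13, with 3.07 kb between Ccno and Mcidas and 34.7 kb between Mcidas and Cdc20b. The table holds 21 genes within 250 kb of Mcidas, of which 7 were tested and only Ccno and Mcidas were called, against 3.54% of all genes; both are among the genes whose rise chose the set, so nothing is read from that count. Next to Ccno on the other side, the RNA helicase gene Dhx29 reached 1459 and 1246 counts under DMSO and 799 and 844 under YKL, a log2 fold change of -0.67 ± 0.20 (adjusted p = 0.0987, edgeR). It was called by DESeq2 and without DMSO replicate 2, at a log2 fold change of -0.77. Skiv2l2, which encodes the helicase of the nuclear exosome, had a log2 fold change of -0.14 ± 0.20 (adjusted p = 0.75). Plpp1, a lipid phosphatase gene, had one of 0.85 ± 0.25 (adjusted p = 0.0921) and shares 25.8% of its exonic bases with Skiv2l2 on the other strand; it was called by DESeq2 and without DMSO replicate 2, at 0.92. Esm1, an endothelial gene, reached 20 and 11 counts under DMSO and 32 and 16 under YKL (log2 fold change 0.69 ± 0.64, adjusted p = 0.59). The entries for Mir449a, Mir449b and Mir449c, inside Cdc20b, had 0 counts in every library, which says nothing of the mature microRNAs.

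**Figure D3:**
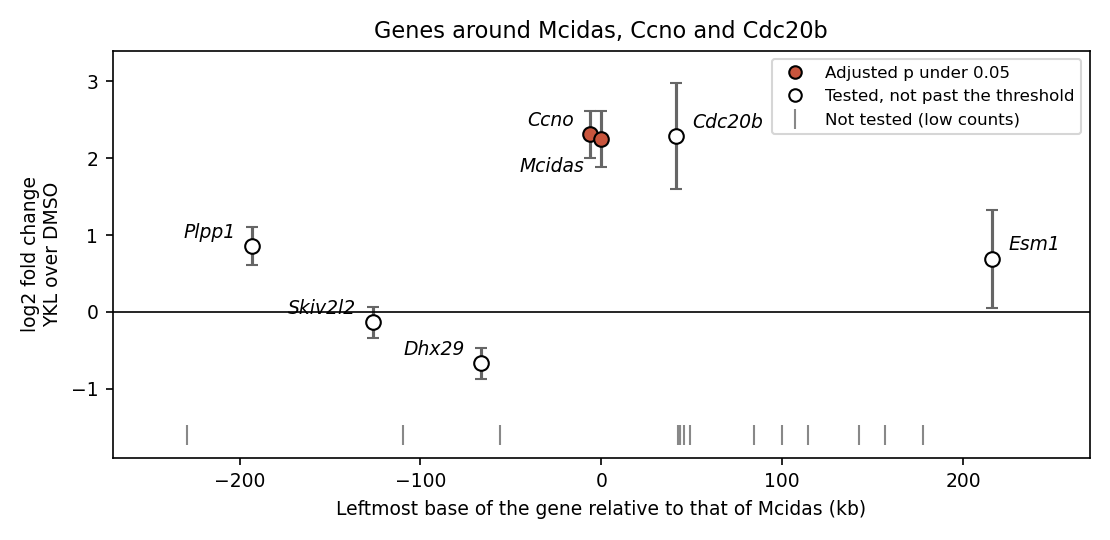
Log2 fold change (YKL over DMSO, with standard error) of the tested genes around Mcidas against the distance between their leftmost base and that of Mcidas, in kb. Filled points passed an adjusted p of 0.05 and grey ticks are genes with too few counts to test; Ccno, Mcidas and Cdc20b lie between 2.25 and 2.31, the other 4 between -0.67 and 0.85.

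Around the regulators, partners and upstream genes were mixed. Of 21 listed genes 20 were tested, 1 rose and 2 fell, against 2.10% and 1.44% of all genes, with a median log2 fold change of 0.11. The Notch target Hes1, a repressor of the multiciliated fate in many tissues, rose, with 10.7 ± 1.37 CPM under DMSO and 25.6 ± 8.11 CPM under YKL (log2 fold change 1.25 ± 0.29, adjusted p = 0.04999). Fzr1, an activator of the anaphase-promoting complex, and the mitotic kinase gene Plk1 fell: Fzr1 had a log2 fold change of -0.92 ± 0.18 (adjusted p = 0.0294) and Plk1 of -1.06 ± 0.20 (adjusted p = 0.0267). The calls of Hes1, Fzr1 and Plk1 ended without YKL replicate 1 (adjusted p = 0.413, 0.178 and 0.157) and without YKL replicate 2 (0.0976, 0.19 and 0.14). With all libraries, the call of Hes1 also ended with total count scaling (edgeR adjusted p = 0.0893) and with no robust prior (0.0789). That of Fzr1 ended with total count scaling (0.0506) and that of Plk1 with no robust prior (0.05002). Without DMSO replicate 2 more genes of this list were called, as were more of all genes tested. Geminin (Gmnn), which binds multicilin and GEMC1, was at 91.7 ± 10.1 and 85.1 ± 1.91 CPM (log2 fold change -0.11 ± 0.18, adjusted p = 0.794), and the DP partner Tfdp1 was at 270 ± 2.71 and 349 ± 7.54 CPM (0.37 ± 0.17, adjusted p = 0.254). Trp73, whose TAp73 form is known to act upstream of Foxj1, was at 62.1 and 68.6 CPM in DMSO and 100 and 112 CPM in YKL, and did not pass the threshold (log2 fold change 0.70 ± 0.18, adjusted p = 0.0668). It passed when DMSO replicate 2 was left out (edgeR adjusted p = 0.0254), by DESeq2 (0.0134), with no filter and with replicate numbers as blocks.

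Among relatives of the regulators 2 rose and 1 fell of 17 tested, against 2.10% and 1.44% of all genes, with a median log2 fold change of 0.31. The cyclin gene Ccne1 had a log2 fold change of 1.05 ± 0.18 (adjusted p = 0.0217) and the MYB relative Mybl2 one of 0.78 ± 0.18 (adjusted p = 0.0469). Cdc20, the mitotic relative of Cdc20b, fell by 1.66 ± 0.22 on the log2 scale (adjusted p = 0.0102) and stayed called in all 10 refits. With all libraries, the call of Mybl2 ended with total count scaling (edgeR adjusted p = 0.0582) and with no robust prior (0.069). The calls of Ccne1 and Mybl2 ended without YKL replicate 1 (adjusted p = 0.0665 and 0.239) and without YKL replicate 2 (0.14 and 0.236), and that of Mybl2 also without DMSO replicate 2 (0.0514).

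Genes listed for centriole assembly, most of them at work in any cycling cell, did not pass the test. Of 30 listed and tested, edgeR called 0, against 3.54% of all genes, and DESeq2 called 1, against 11.0%. By edgeR 6 had an unadjusted p under 0.05, against 3551 of all 16749 genes tested. The median log2 fold change was -0.09. The libraries of the treatments did not overlap for 13 of the 30, against 52.3% of all genes. Cep63, which recruits the centriole kinase pathway at the mother centriole as its paralog Deup1 does at the deuterosome, was at 55.6 and 34.6 CPM in DMSO and 31.5 and 26.2 CPM in YKL (log2 fold change -0.65 ± 0.26, adjusted p = 0.191). It was called only without DMSO replicate 2, at a log2 fold change of -0.98 (adjusted p = 0.00188). Per kilobase, Deup1 was 0.374 and 0.499 times Cep63 in DMSO and 3.89 and 3.02 times in YKL. The largest difference of the list, chosen after its values were seen, was that of the centrin gene Cetn4, at 9.09 and 7.90 CPM in DMSO and 18.6 and 17.4 CPM in YKL (log2 fold change 1.08 ± 0.28, adjusted p = 0.0664). Cetn4 was called by DESeq2 (adjusted p = 0.00383), with no filter, with replicate numbers as blocks and without either DMSO library. The most abundant members per kilobase of exon, Cetn2 (centrin) and Pcm1 (the scaffold of centriolar satellites), had log2 fold changes of -0.23 ± 0.19 (adjusted p = 0.534) and -0.05 ± 0.18 (adjusted p = 0.907). Without DMSO replicate 2, 4 genes of the list were called, in a fit that called 14.0% of all genes.

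The structural genes of motile cilia, which the regulators switch on in multiciliated cells, were mixed in level and direction. Of 45 listed, 26 had enough counts to test, and levels reached 663 and 937 CPM in DMSO for the tubulin gene Tubb4b. Of the 26, 1 rose and 0 fell, against 2.10% and 1.44% of all genes, and the median log2 fold change was -0.19 with 10 values above and 16 below 0. Mlf1, a gene expressed in ciliated cells, rose, with 49.9 ± 11.6 CPM under DMSO and 105 ± 11.4 CPM under YKL (log2 fold change 1.07 ± 0.21, adjusted p = 0.0322). With all libraries it was not called with total count scaling (edgeR adjusted p = 0.05697) or with no robust prior (0.05665). Its call ended when either YKL library was left out (adjusted p = 0.157 and 0.0897), fits in which 0 genes of the list were called. Without DMSO replicate 1 and DMSO replicate 2, 6 and 8 were called, against 7.61% and 14.0% of all genes. Other members pointed in both directions, as these examples, chosen after their values were seen, show. Mns1, which encodes a protein of the axoneme, was at 138 and 90.3 CPM in DMSO and 230 and 193 CPM in YKL (adjusted p = 0.0669), but 53.0% of its exonic bases are shared with Tex9 on the other strand. Rsph1, a radial spoke gene, was at 11.6 and 16.3 CPM in DMSO and 5.48 and 5.96 CPM in YKL (adjusted p = 0.0641). Rsph4a, another radial spoke gene, reached 110 and 14 counts under DMSO and 1 and 3 under YKL (log2 fold change -4.80, adjusted p = 0.0723), and its log2 fold change was -2.73 without DMSO replicate 1. Rsph4a passed the filter on low counts only through DMSO, so its direction is not read as a result. With all libraries, Mns1, Rsph1 and Rsph4a were called by DESeq2 (adjusted p = 0.0131, 0.00248 and 0.00333). They were also called with no filter and with replicate numbers as blocks. Mns1 was called without DMSO replicate 1 too, Rsph1 without either DMSO library and Rsph4a without DMSO replicate 2. In those fits with a library left out the YKL pair alone gives the spread.

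**Figure D4:**
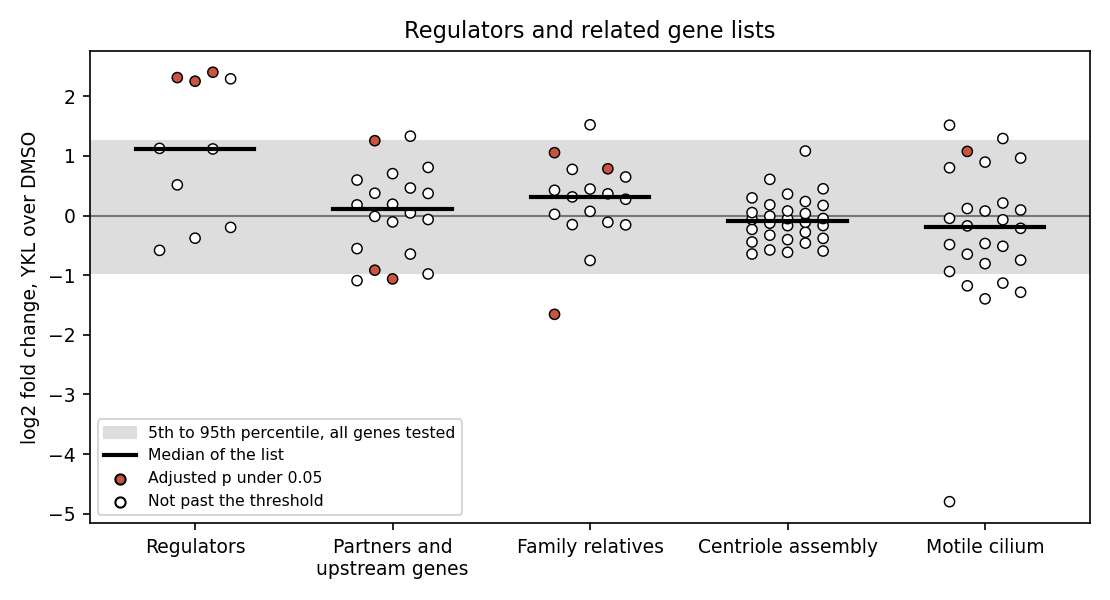
Log2 fold change, YKL over DMSO, of every tested gene of the set and of the 4 related lists; filled points passed an adjusted p of 0.05, black bars are medians, and the grey band holds the 5th to 95th percentile of all genes tested (-0.96 to 1.25). The regulators Deup1, Ccno, Mcidas and Cdc20b lie above the band, as do Rfx4, Armc4, Foxn4, Spata18 and Hes1 of the other lists. Of the latter only Hes1 passed the threshold. Below the band, all from the other lists, lie Rsph4a, Cdc20, Ccdc39, Rsph1, Spag6l, Dnah9, Fbxo43, Plk1 and Ccna1. Of these only Cdc20 and Plk1 passed. The median is 1.12 for the regulators, a set chosen by the rise of some of its members. The medians of the other lists lie between -0.19 and 0.31.

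The authors' deposited table of their own comparison holds 9 of the 10 regulators, without Gmnc. In the authors' deposited table Deup1, Mcidas and Ccno ranked 4, 20 and 22 by p-value among 15936 genes, the log2 fold changes there being 2.20, 2.05 and 2.10. At an adjusted p under 0.05, the authors' deposited table has 6 regulators higher (these 3 with Foxj1, Cdc20b and Myb) and 1 lower (E2f4), where 27.8% of all its genes pass, 13.9% in each direction. For Cdc20b the authors' deposited table gives a log2 fold change of 0.99, against 2.29 from edgeR here. In the authors' deposited table the Wald score of Cdc20b is 2.81 whereas its fold change over its error is 2.996, so the listed fold may be moderated and the values are not like for like.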

How the data were processed

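RNA from 4 libraries, 2 per treatment, was measured by bulk sequencing. Per the submitters' processing notes, the authors aligned reads to mm10 with STAR 2.5.2b and counted them per gene with featureCounts; the deposited table holds these raw counts. The strand setting of the counting is not given in the sources used here, so genes that overlap on opposite strands may share reads. The authors also deposited a DESeq2 comparison, per the file headers, giving per gene a mean signal after normalization, the log2 fold change with its error, the Wald score and the p-value, raw and adjusted; these are used here only for side-by-side values.

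Counts were tested with edgeR 4.0.16 (R 4.3.3): filterByExpr (minimum count 10, minimum total 15), TMM scaling, quasi-likelihood test with a robust prior, 2 libraries per group, Benjamini-Hochberg adjustment over 16749 genes and a threshold of 0.05. Standard errors are the absolute log2 fold change over the square root of F. Levels are TMM-scaled CPM; depth was 29817387 to 34189709 counts. Exonic lengths and overlaps come from the count table, promoters from RefSeq (GRCm38.p6).

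The regulators and the related lists were chosen with earlier results of these data known. Named were all regulators, the called members of each list (up to 3 per direction, or the 2 most abundant where none was called), Gmnn, Cep63, Tfdp1 and Trp73, and every tested gene within 250 kb of Mcidas. Cetn4, Mns1, Rsph1, Rsph4a, Tubb4b, Rfx4, Armc4, Foxn4, Spata18, Ccdc39, Spag6l, Dnah9, Fbxo43, Ccna1 and single markers of cell types were named besides, after their values were seen. Alternatives were RLE or total count scaling, no filter, a block for the replicate number, a prior that is not robust, DESeq2 1.42.0 and each library left out. The common biological coefficient of variation was 25.0%.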

Additional observations from a re-analysis of the deposited data

How the results depend on the processing

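All 10 regulators kept their direction in each of the 10 alternatives that gave an adjusted p (DESeq2 gave none for Gmnc and Cdc20b). That was nearly fixed for 9 of them by groups that do not overlap. Deup1 and Ccno were called in all 10 and Mcidas in 8. Instead of 3 regulators, 5 were called without the filter, and 2 to 4 with a library left out. Calls over all genes went from 593 to 169 with total count scaling, 1740 without the filter, 1387 with the replicate block, 236 without the robust prior and 1588 by DESeq2, and ran from 71 to 2453 with a library left out; the cause was not tested. Partner and upstream genes called were 1 instead of 3 with total count scaling and 1 without the robust prior, and 0 to 7 with a library left out. Centriole assembly genes called were 2 instead of 0 without the filter, 1 with the replicate block and 1 by DESeq2, and 0 to 4 with a library left out. Motile cilium genes called were 0 instead of 1 with total count scaling and without the robust prior, 7 without the filter, with the replicate block and by DESeq2, and 0 to 8 with a library left out. Family relatives called were 5 instead of 3 without the filter and with the replicate block, 6 by DESeq2, and 1 to 6 with a library left out. Foxj1 was called with the replicate block, at a log2 fold change of 1.18. With a library left out, the log2 fold change of Gmnn ran from -0.25 (without DMSO replicate 2) to 0.012 (without DMSO replicate 1) and that of Skiv2l2 from -0.37 to 0.087, so both turned. The differences between replicates 1 and 2 correlated across genes between the treatments (r = 0.15), but with 2 pairs and no label that ties them the numbers do not establish pairs. With a library of one treatment left out, the pair of the other treatment alone gives the spread, and the lone library is assumed to vary like it. At this depth Gmnc and Cdc20b, with at most 33 counts in a library, are limited by counting error.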
